A study of Mus musculus with 2 samples.

Results

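The 4 mouse Hox clusters and the long stretches of DNA on either side of them held 250 of the 90984 Smad4 peaks in the deposited list. Peaks were taken when their midpoint lay in 1 of 4 mm9 windows, which are called landscapes here. The HoxA landscape, chr6:51000001-53500000, held 81 peaks. The HoxB landscape, chr11:95500001-97000000, held 38. The HoxC landscape, chr15:102500001-103400000, held 27. The HoxD landscape, chr2:73500001-76000000, held 104. Inside each landscape an interval given with the window stood for the cluster itself. These intervals were chr6:52100001-52220000, chr11:96100001-96400000, chr15:102750001-102870000 and chr2:74480001-74610000. They held 22 peaks in all, and the remaining 228 peaks lay in the flanks.

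The data came from 1 Smad4 chromatin immunoprecipitation library and 1 library of input DNA, made from forelimbs of C57BL/6 mouse embryos aged embryonic days 12.5 and 13.5. The labels give both ages for each library and name no mutant and no treatment. A forelimb at these ages holds cartilage, muscle precursors, skin, vessels and other cells, and the list does not separate them. With 1 library per group no comparison has a replicate check. Intervals on densities (exact Poisson) and on shares (exact binomial, Clopper-Pearson) are 95% intervals and cover counting error only, and no test was run. Tags, fold, p score and false discovery rate (FDR) of each peak are the authors' values. The fold is the caller's enrichment over a background that the sources used here do not describe. The sequencing depth is unknown.

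Hox genes encode homeodomain transcription factors that give positional identity along the body axis and along the limb. Their order on the chromosome follows the order of their expression domains, with the group 13 genes at the end that acts last and most distally. In the limb, HoxA and HoxD genes pattern upper arm, forearm and digits, and much of their control comes from enhancers in the flanking DNA. At HoxD, digit enhancers lie beyond Hoxd13 and forearm enhancers beyond Hoxd1. Smad4 is the shared partner of the Smads that carry BMP and TGF-β signals to DNA. BMP signalling acts on digit and cartilage formation at these ages.

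The landscapes held 33.8 Smad4 peaks per Mb (29.7 to 38.2), an interval that includes the 35.3 per Mb of the whole list over the span of its chromosomes. HoxD was the densest, at 41.6 per Mb (34.0 to 50.4), against 33.5 per Mb (32.7 to 34.4) on the rest of chromosome 2. HoxA had 32.4 per Mb (25.7 to 40.3), against 35.4 on the rest of chromosome 6. HoxC had 30 per Mb (19.8 to 43.6), against 32.6 on the rest of chromosome 15. HoxB was the sparsest, at 25.3 per Mb (17.9 to 34.8), against 30.2 on the rest of chromosome 11. The interval of HoxA, HoxB and HoxC held the density of its own chromosome. The interval of HoxD overlapped that of its chromosome only between 34.0 and 34.4 per Mb. The 35.3 per Mb of the whole list lay within the intervals of HoxD, HoxA and HoxC and just above that of HoxB.

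By fold the peaks of the landscapes were close to the list. Their median fold was 1.5 (quartiles 1.3 and 1.74), against 1.49 (1.25 and 1.79) over the list. Of the 250 peaks 34 were at least 2-fold enriched (13.6%, 9.61 to 18.5%), as were 14.3% of all listed peaks. Only 1 member reached 3-fold (0.400%), against 0.835% of the list. A fold below 1 was given to 11 members (4.40%), against 4.41% of the list. The lowest number of tags in the list, 15, was held by 83 members (33.2%), against 33.8% of the list. The FDR was at most 1% for 209 members (83.6%, 78.4 to 88.0%), against 77.6% of the list, which lies below that interval. It was 79.5% on the rest of chromosome 11, which the interval holds. On the rest of chromosomes 6, 15 and 2 it was 76.6, 76.6 and 77.2%. At least 30 tags, a limit chosen after the values were seen, were held by 8 members (3.20%, 1.39 to 6.21%), against 6.86% of the list, which lies above that interval. On the rest of the 4 chromosomes that share was 4.33 to 5.63%, which the interval holds. Of these 8 peaks 7 lay in the HoxD landscape, where they were 6.73% of the peaks (2.75 to 13.4%), close to the share of the list.

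**Figure D1:**
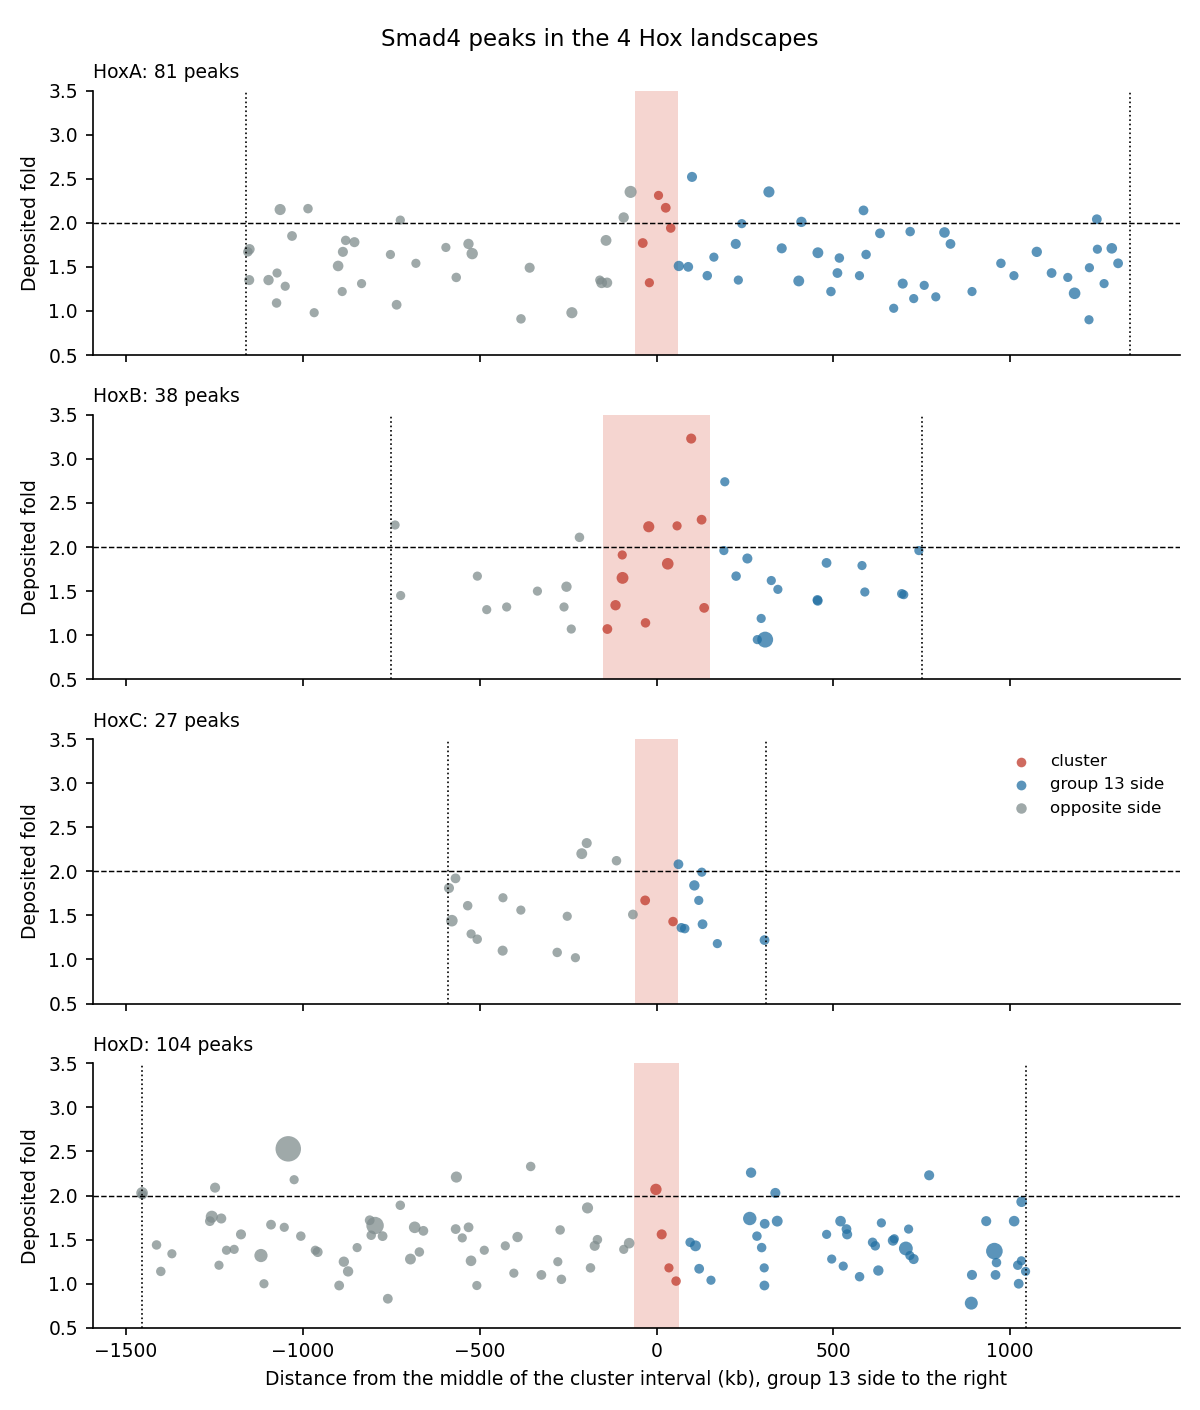
Deposited fold of the 250 Smad4 peaks against their distance in kb from the middle of the cluster interval, 1 panel per landscape, with the group 13 side to the right and point area in proportion to tags. The shaded band is the cluster interval, dotted lines are the ends of the landscape and the dashed line is 2-fold. Most points lie between 1- and 2-fold at every distance, and the highest point, 3.23-fold, lies in the HoxB interval.

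Inside the cluster intervals the density of peaks was within counting error of that in the flanks. Their pooled median fold was higher, though not at HoxD and, at HoxC, barely above that of the opposite flank. The 22 peaks amounted to 32.8 per Mb (20.6 to 49.7), and the flanks had 33.9 per Mb (29.6 to 38.6). The median fold was 1.72 (quartiles 1.32 and 2.14) in the intervals and 1.49 (1.29 and 1.71) in the flanks. By cluster it was 1.94 at HoxA, 1.81 at HoxB, 1.55 at HoxC over 2 peaks and 1.37 at HoxD over 4. The flanks of HoxD had medians of 1.43 on the group 13 side and 1.46 on the opposite side. In the same order the flank medians were 1.525 and 1.525 at HoxA, 1.52 and 1.475 at HoxB, and 1.4 and 1.535 at HoxC. At least 2-fold were 7 of 22 peaks in the intervals (31.8%, 13.9 to 54.9%) and 27 of 228 in the flanks (11.8%, 7.95 to 16.8%). The interval of the first share reaches down to the 14.3% of the whole list. On the rest of the own chromosome the share was 12.6% for HoxA, 18.9% for HoxB, 13.8% for HoxC and 14.8% for HoxD. HoxB, with the highest of these, gave 11 of the 22 peaks. Per Mb, peaks of at least 2-fold numbered 10.4 (4.201 to 21.5) in the intervals, 4.01 (2.64 to 5.84) in the flanks and 5.03 over the list. All 22 peaks of the intervals had an FDR of at most 1% (84.6 to 100%), against 187 of 228 in the flanks (82.0%, 76.4 to 86.8%). None of the 22 had a fold below 1 (0 to 15.4%), an interval that holds the 4.41% of the list. The 22 peaks held 15 to 25 tags. The exact Poisson interval at 15 tags runs from 8.40 to 24.7, so differences in tags between most of these peaks are within counting error.

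The 4 clusters contributed different numbers of peaks. At least 2-fold were 4 of 11 peaks at HoxB, 2 of 5 at HoxA, 1 of 4 at HoxD and 0 of 2 at HoxC, a share for which the exact interval reaches 84.2%. HoxB and HoxA together thus held 6 of the 7, and they also held most of the 22 peaks. With so few peaks the intervals of the 4 clusters overlap throughout, and each holds the share of the list.

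**Figure D2:**
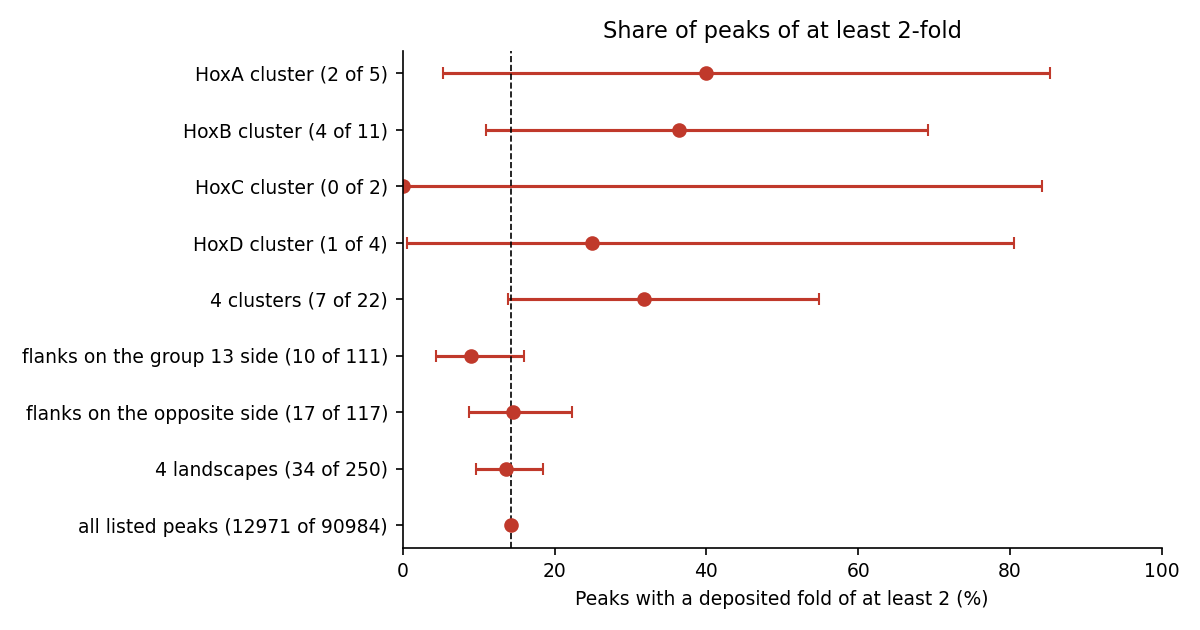
Share of peaks with a deposited fold of at least 2 in each cluster interval, in the flanks, in the landscapes and in the whole list, with exact binomial 95% intervals that cover counting error only. The dashed line is the 14.3% of all listed peaks. The 4 clusters together reach 31.8% with an interval from 13.9%, and both kinds of flank lie near or below the line.

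In HoxA the gene table places Hoxa13 at the end of higher coordinates. Hoxa13 is needed for the digits and Hoxa11 for the forearm. Its interval held 5 peaks, spread over it with gaps of up to 25.3 kb. The peak at chr6:52165407-52165890 held 15 tags and had the highest fold of the cluster, 2.31, which 5.85% of the list reached. The next, chr6:52185818-52186383, held 17 tags at 2.17-fold. The peak nearest to the Hoxa13 border, chr6:52199873-52200446, held 16 tags at 1.94-fold. Toward the border of lower coordinates fold was lower in part, with 1.77 and 17 tags at chr6:52120763-52121399 and 1.32 and 15 tags at chr6:52139515-52140098.

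The highest folds of the HoxA landscape lay just outside its cluster interval. On the Hoxa13 side, chr6:52260079-52260693 held 18 tags at 2.52-fold, 40.4 kb beyond the border, and 3.14% of the list had a fold as high. On the opposite side, chr6:52086404-52087074 held 26 tags at 2.35-fold, 13.3 kb below the border. It had the most tags of the HoxA landscape (exact Poisson interval 17.0 to 38.1). A further peak on that side, chr6:52066839-52067427, held 19 tags at 2.06-fold. Farther out on the Hoxa13 side, the direction in which the digit enhancers of HoxA are known to lie, chr6:52477559-52478212 held 22 tags at 2.35-fold, 258 kb from the border. No other peak of the HoxA flanks exceeded 2.16-fold. Among them were the next in tags, chr6:53341997-53342723 with 24 at 1.2-fold and chr6:51638337-51639126 with 23 at 1.65-fold. The nearest protein-coding neighbours in the gene table are Skap2 and Snx10 below the cluster and Evx1, Hibadh and Tax1bp1 beyond Hoxa13, but no peak was tied to any of them.

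HoxB genes are known for their part in patterning the hindbrain and trunk. The HoxB interval, at 300 kb the longest of the 4, held the largest number of peaks, 11. This was 36.7 per Mb (18.3 to 65.6), against 41.7 per Mb in the HoxA interval and 35.3 over the list. The strongest of all 250 peaks by fold also lay in the HoxB interval. That peak, chr11:96151621-96152200, held 18 tags (10.7 to 28.4) at 3.23-fold with an FDR of 0.08%. Only 0.466% of the list had a fold as high. Others above 2-fold were chr11:96122266-96122836 at 2.31, chr11:96191685-96192124 at 2.24 and chr11:96271629-96272275 at 2.23, with 17, 15 and 22 tags. These 4 peaks lay apart from one another over the interval.

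The other 7 peaks of the HoxB interval ranged from 1.07- to 1.91-fold. A pair only 194 bp apart, chr11:96345745-96346510 and chr11:96346705-96347147, held 25 and 15 tags at 1.65- and 1.91-fold, and the first had the most tags of any cluster peak. With 24 tags, chr11:96217823-96218682 reached 1.81-fold. At the lower end of the interval, chr11:96114940-96115558 held 17 tags at 1.31-fold. In the higher part, values of 1.14, 1.34 and 1.07 belonged to chr11:96280889-96281383, chr11:96365591-96366222 and chr11:96388709-96389280. That part also held the pair and the peak of 2.23-fold named above.

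The HoxB interval is 300 kb long, while the 10 HoxB genes span 174 kb from Hoxb13 to Hoxb1 in the gene table of another assembly, so it takes in sequence beyond the genes. Its placement against the HoxB genes in mm9 was not checked, so it may also leave out part of them. This limit bears on the 11 peaks counted here and on the 31.8% of the 4 clusters together. The other 3 intervals of 120 to 130 kb are close to their spans of 96.9 to 116 kb. Its lower 150 kb, chr11:96100001-96250000, held 5 peaks, of which 3 were at least 2-fold. Its higher 150 kb, chr11:96250001-96400000, held 6, of which 1 was. Below the interval, 43.1 kb from its border, chr11:96056581-96057174 held 15 tags at 2.74-fold, the second highest fold of all 250 peaks. Taken from 50 kb lower, chr11:96050001-96250000 held 7 peaks with a median fold of 2.24, and 4 of these were at least 2-fold. Elsewhere in the landscape, chr11:96989087-96989683 reached 2.25-fold with 15 tags, and chr11:96467655-96468203, the first peak above the interval, reached 2.11-fold with 16. The most tags of the landscape, 45 (32.8 to 60.2), lay at chr11:95942309-95943124, where the fold was 0.95.

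HoxC had the fewest peaks, and none above 2-fold in its interval. HoxC genes are known from the axial skeleton, and Hoxc13 from hair and nail formation. The first peak, chr15:102763054-102763629, held 16 tags at 1.43-fold, and the second, chr15:102841813-102842413, held 17 tags at 1.67-fold. Between them lay 78.2 kb with no listed peak. Just outside, 2.02 kb below the border on the Hoxc13 side, chr15:102747741-102748215 held 17 tags at 2.08-fold. Farther out on that side were chr15:102681664-102682236 with 15 tags at 1.99-fold and chr15:102702672-102703255 with 19 at 1.84-fold. In the flank beyond Hoxc4, chr15:103007129-103007648 held 18 tags at 2.32-fold, the highest of the landscape. Near it chr15:103021078-103021728 held 21 tags at 2.20-fold, and chr15:102922889-102923445 held 16 at 2.12-fold. The most tags of the landscape, 24, lay at chr15:103388409-103389246 with a fold of 1.44.

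In the HoxD interval 4 peaks lay from the border beside Hoxd13 to just past the middle of the interval. In order from that border, chr2:74489401-74489942 held 16 tags at 1.03-fold and chr2:74509585-74510174 held 15 tags at 1.18-fold. Further in, chr2:74530020-74530678 held 18 tags at 1.56-fold, and chr2:74546362-74547066 held 23 tags (14.6 to 34.5) at 2.07-fold. Fold was thus higher with distance from the Hoxd13 border, over 4 peaks of overlapping tag intervals. The last 62.9 kb of the interval, toward Hoxd1, held no listed peak. Hoxd13, Hoxd12 and Hoxd11, which act in digits and forearm, lie toward the first border in the gene table, after Evx2 and Lnpk. Mtx2 is the next neighbour beyond Hoxd1.

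The flank beyond Hoxd1 held the peak with the most tags of all 250. At chr2:75585670-75587237, 976 kb above the cluster interval, a peak of 1568 bp held 115 tags (94.9 to 138) at 2.53-fold, with a p score of 873 and an FDR of 0%. This score, made by the caller from the logarithm of its p-value, was number 65 of the list from the top. An FDR of 0% was given to 89 of all listed peaks and to no other member. The next in tags on this side, chr2:75340155-75341718, held 54 tags (40.6 to 70.5) at 1.66-fold. Others above 2.1-fold here were chr2:74900599-74901098 at 2.33, chr2:75110659-75111320 at 2.21 and chr2:75569642-75570011 at 2.18, with 16, 22 and 15 tags.

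The flank beyond Hoxd13, where digit enhancers are known to lie, held 43 peaks, or 43.9 per Mb (31.8 to 59.1), and the flank beyond Hoxd1 held 57, or 41.0 per Mb (31.1 to 53.1). These densities are within counting error of each other. At least 2-fold were 3 of the 43 peaks (6.98%, 1.46 to 19.1%) and 7 of the 57 (12.3%, 5.08 to 23.7%), so neither flank of HoxD exceeded the share of the list. On the Hoxd13 side the highest folds were 2.26 at chr2:74277221-74277968 with 19 tags, 202 kb from the border, and 2.23 at chr2:73773720-73774198 with 18 tags. The peak with the most tags there, chr2:73588770-73590156, held 49 (36.3 to 64.8) at 1.37-fold. With 30 tags, chr2:73654262-73655255 had a fold of only 0.78, the lowest of all 250. The widest stretch of the landscape without a peak, 139 kb, was chr2:74064226-74203275, also on this side.

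**Figure D3:**
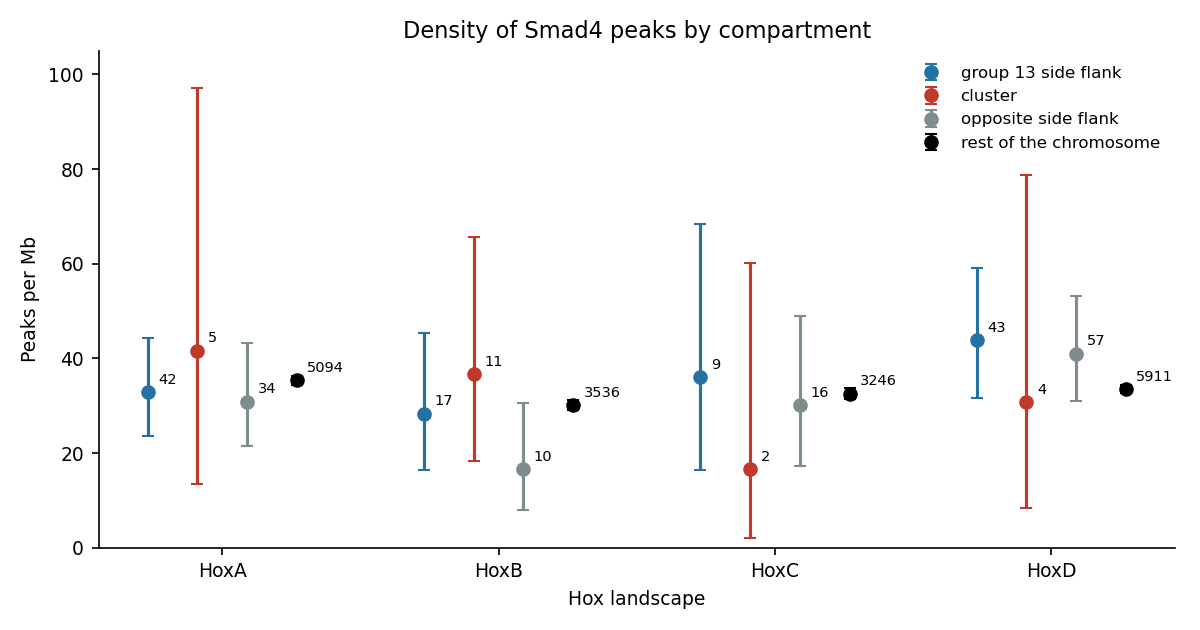
Peaks per Mb in the flank on the group 13 side, in the cluster interval, in the opposite flank and on the rest of the same chromosome, with exact Poisson 95% intervals that cover counting error only and the number of peaks beside each point. HoxD has the densest flanks, at 43.9 and 41.0 per Mb, and the flank of HoxB opposite to Hoxb13 is the sparsest, at 16.7.

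Over the 4 landscapes the flanks on the side of the group 13 gene and on the opposite side were within counting error of each other in density. The side of the group 13 gene held 111 peaks at 35.7 per Mb (29.4 to 43.0), and the opposite side held 117 at 32.3 per Mb (26.7 to 38.7). The side of the group 13 gene was the denser one at each of the 4 clusters, but in each the intervals of the flanks overlapped. The widest gap between them was at HoxB, with 17 peaks at 28.3 per Mb (16.5 to 45.4) beside Hoxb13 and 10 at 16.7 per Mb (7.99 to 30.7) on the side of Hoxb1 and Skap1. The latter included the longest stretch without a peak in any landscape, 216 kb at chr11:96756961-96973288. At least 2-fold were 10 of 111 peaks on the group 13 side (9.01%, 4.41 to 15.9%) and 17 of 117 on the opposite side (14.5%, 8.70 to 22.2%). These intervals overlap, and both hold the 14.3% of the list.

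The share of strong peaks in the flanks was highest close to the cluster borders, over few peaks. Within 50 kb of a border, 5 of 16 peaks were at least 2-fold (31.3%, 11.02 to 58.7%), against 31.8% in the intervals and 14.3% of the list, which the interval holds. It was 4 of 38 (10.5%) from 50 to 200 kb, 5 of 55 (9.09%) from 200 to 500 kb and 13 of 119 (10.9%) beyond 500 kb. HoxA gave 3 of the 5 near peaks, and without HoxA the near share was 2 of 11 (18.2%, 2.28 to 51.8%). HoxC gave 3 of the 4 from 50 to 200 kb, and without HoxC that share was 1 of 29 (3.45%). These distance classes were chosen after the values were seen. The density of all peaks was lowest from 200 to 500 kb, at 25.6 per Mb (19.3 to 33.3), and 39.9 per Mb (33.1 to 47.8) beyond 500 kb. Without HoxD these densities were 18.1 and 35.4 per Mb. Without HoxB the density was 30.3 per Mb from 200 to 500 kb and 28.9 per Mb from 50 to 200 kb. The class of lowest density thus depended on HoxB.

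Gaps between neighbouring peaks were shortest at HoxD. The median gap between neighbours was 14.2 kb there, 19.97 kb at HoxC, 21.7 kb at HoxA and 25.7 kb at HoxB, against 16.3 kb in the list. Gaps under 10 kb made up 35.9% at HoxD, 30.8% at HoxC, 22.5% at HoxA and 21.6% at HoxB, against 38.0% in the list. Runs of at least 3 peaks with gaps under 10 kb numbered 9 at HoxD, 4 at HoxA, 3 at HoxC and 0 at HoxB, with 53 of the 250 peaks in all (21.2%), against 33.3% of all listed peaks in such runs. By landscape this share was 30.8% at HoxD, 33.3% at HoxC and 14.8% at HoxA. None lay in a cluster interval. The largest, 5 peaks over 21.9 kb at chr2:73512032-73533881, had folds of 1.00 to 1.93. The 3 peaks over 16.3 kb at chr2:75340155-75356430 included the peak of 54 tags named above. No peak of a run exceeded 2.15-fold.

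The peaks just inside and just outside the ends of the landscapes were ordinary ones. The 8 inside held 15 to 24 tags at 1.14- to 2.25-fold, and the 8 outside held 15 to 21 tags at 0.94- to 1.58-fold. At the cluster borders the 8 peaks inside had folds of 1.03 to 2.07 and the 8 outside had folds of 1.46 to 2.35. At least 2-fold were 1 of the 8 inside and 3 of the 8 outside, against 14.3% of all listed peaks. Most of the 8 outside were among the near peaks already counted by distance. With so few peaks the 2 sides of the borders cannot be told apart.

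Sequence under the peaks was not analysed here, because the sequences at hand are of another assembly. RefSeq promoters (GRCm38.p6), which run from 250 bases before to 50 bases after a gene's start, were matched by symbol for 22 of the 39 Hox genes, 24 promoters in all. They were searched on both strands for letters that Smad proteins are known to bind. GTCTG, the Smad box, with its reverse complement CAGAC, was in 9 of 24 (37.5%, 18.8 to 59.4%) and in 49.6% of all 32851 promoters of the table. GGCGCC, a GC-rich motif that is its own reverse complement, was in 5 of 24 (20.8%, 7.13 to 42.2%) and in 11.9% of all. Neither motif contains the other, and none of the 24 promoters held both. The share of all promoters that hold both was not computed, so this count has nothing to be set against. Some genes have more than 1 promoter in the table, and 2 genes, Hoxd11 and Hoxa10, held both motifs in separate promoters. The median GC content was 57.7% in the Hox promoters and 52.7% in all. Hoxd13 and Hoxd12, neighbours at the digit end of HoxD, are shown because each holds a different one of these motifs, which are in capitals. Both lie on the plus strand of chromosome 2. Whether a peak covers either promoter was not tested.
Hoxd13: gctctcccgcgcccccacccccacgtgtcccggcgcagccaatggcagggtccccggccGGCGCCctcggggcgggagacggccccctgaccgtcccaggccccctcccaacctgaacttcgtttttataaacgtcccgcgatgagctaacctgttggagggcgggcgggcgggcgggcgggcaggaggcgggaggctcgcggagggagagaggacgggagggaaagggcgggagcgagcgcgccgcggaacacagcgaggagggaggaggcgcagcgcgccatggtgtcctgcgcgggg
Hoxd12: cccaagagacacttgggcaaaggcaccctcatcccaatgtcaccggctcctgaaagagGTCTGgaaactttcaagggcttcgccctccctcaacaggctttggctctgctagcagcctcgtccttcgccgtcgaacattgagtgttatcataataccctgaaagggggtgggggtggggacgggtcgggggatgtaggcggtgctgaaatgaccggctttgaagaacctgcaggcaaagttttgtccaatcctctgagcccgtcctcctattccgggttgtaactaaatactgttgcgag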

How the data were processed

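The deposited table is a list of peaks of 1 Smad4 library. The submitters' processing notes name BWA, SICER, MACS and mm9, without versions or settings. Tags per peak are whole-number counts that the authors' caller made, per the file headers. The p score, the fold (a ratio) and the FDR (a percent) are values deposited by the authors and were used as they stand. All 90984 lengths equalled end minus start plus 1, positions are 1-based, and no peak was repeated. Library totals and coverage were not used here.

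Peaks were assigned to landscapes, clusters and flanks by midpoint. Densities have exact Poisson intervals and shares exact binomial (Clopper-Pearson) intervals at 95%. Both cover counting error only, and without molecular identifiers 1 molecule can give several tags. Chromosome spans ran from the first to the last peak. Named peaks were, in each landscape, all peaks in the cluster, the 5 of highest fold, the 3 with the most tags, those at borders, and runs of at least 3. Borders and runs are mostly given by their range, and a few others were named after their values were seen. The members and lists were chosen with earlier results of these data known. Gene order and promoters came from RefSeq GRCm38.p6, whose coordinates were not used. Peaks were therefore not tied to genes. Assignment was tested on simulated data. Alternatives were FDR and fold limits, assignment by summit or overlap, merging, shifted borders, narrower flanks and leaving out landscapes. Tables were handled with pandas 2.3.3 and numpy 2.4.6 in Python 3.11.15, intervals came from scipy 1.17.1, and plots were drawn with matplotlib 3.10.9.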

Additional observations from a re-analysis of the deposited data

How the results depend on the processing

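In the cluster intervals 31.8% of peaks were at least 2-fold, and this share lay between 23.5% (higher 150 kb of the HoxB interval only) and 38.9% (lower 150 kb of it, begun 50 kb lower), and in the flanks between 11.2% and 14.4%, in every alternative computed. The HoxB alternatives and leaving out single clusters were chosen after seeing the data. Limiting the list to a fold of at least 2 left 34 peaks, with 12 at HoxA, 7 at HoxB, 4 at HoxC and 11 at HoxD, and densities of 10.4 per Mb in the intervals and 4.01 per Mb in the flanks. These follow from the limit itself. Limiting the FDR to 1% gave 27.8 per Mb in the flanks and a median fold of 1.56 in the landscapes. The density of the flanks was 29.1 per Mb with flanks of at most 500 kb and 29.4 per Mb without HoxD, and the cause was not tested. The remaining 96 of 107 values stayed within the interval of the value in the report or, for counts, within 1.5 times. Some of these could not move. Narrower flanks leave the cluster intervals as they are, and all 22 peaks of the intervals already met the FDR limit. Merging peaks less than 1 kb apart left 240. No paired analysis was possible because there is a single library of each kind. Precision is limited by the few tags per peak, and library depth is unknown.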
